A study of Schizosaccharomyces pombe with 21 samples.

Results

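RNA-seq libraries of 2 fission yeast (Schizosaccharomyces pombe) strains that carry different missense alleles of kcs1, kcs1-L338R and kcs1-E834K, were compared with each other to ask how alike their transcriptomes were. The comparison takes 6 of the 21 libraries of the series, 3 cultures of each allele, and reads them in 1 fit with the 6 other libraries of the same experiment (3 of kcs1-WT and 3 of kcs1-R332T). The libraries were chosen by genotype alone, with no measured value in the choice. All 12 came from haploid h+ cells in vegetative growth, harvested in log phase from YES medium (yeast extract with supplements) at 30 °C, and were made from poly(A)+ RNA. Every one of these strains, kcs1-WT included, carries its kcs1 open reading frame in a cassette with an ADH1 terminator and a kanMX resistance marker at the native locus, put in place in a diploid from which haploids were then recovered. Per the study's strain list, all of them also carry mutant alleles of leu1, ura4, his3 and ade6. Which ade6 allele each strain carries is not given. In kcs1-L338R a leucine codon is changed to arginine, in kcs1-E834K a glutamate codon to lysine, and in kcs1-R332T an arginine codon to threonine. The labels give 1 strain for each allele, so an effect of the allele and an effect of whatever else sets that strain apart cannot be told apart, and the replicates measure the spread between cultures of 1 strain.

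Kcs1 phosphorylates phytic acid (IP6) to the inositol pyrophosphate 5-IP7, which the kinase Asp1 turns into 1,5-IP8. In fission yeast IP8 is known as a regulator of phosphate homeostasis, where the genes for acquiring phosphate (the PHO regulon) are held down in phosphate-rich medium by transcription of long noncoding RNAs through their promoters. The study recovered kcs1 missense mutations in a screen for suppressors of the growth defect of strains that lack Asp1 pyrophosphatase activity. It profiled those that were viable with wild-type asp1 in that background.

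The L338R libraries held 24152683, 22124925 and 24562528 counted reads and the E834K libraries 23994136, 27776638 and 19515604, with 99.1% to 99.2% of the reads on protein-coding loci. Replicates were uneven in 1 group only. The distance between 2 libraries was taken as the root mean square difference of log2 normalized counts over 4695 coding loci with a mean of at least 100 normalized counts (a normalized count is a count scaled to the effective library size). Within E834K the 3 libraries lay 0.13 to 0.16 apart. Within L338R, replicates 2 and 3 lay 0.20 apart, but replicate 1 lay 0.35 from replicate 3 and 0.48 from replicate 2.

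The library that stands apart from all others is thus L338R replicate 1. It was 0.43 to 0.51 from the E834K libraries, and at 742 loci it differed by more than 1.5-fold from the mean of the other L338R libraries. L338R replicate 2 departed from its group at 499 loci by the same measure but lay only 0.15 to 0.16 from each E834K library, inside the E834K cluster. The corresponding counts were 18 for L338R replicate 3 and 2 to 14 for the 9 libraries of the other genotypes. Deviations of L338R replicates 1 and 2 from the rest of their group mirrored each other across genes (Pearson r = -0.93 across these loci, a description, since both are measured against replicate 3 and against each other). Replicate 1 was low, and replicate 2 high, at weakly expressed loci, with median deviations of -0.55 and 0.40 on the log2 scale in the lowest 10% of loci by level, and in the 10% with the lowest GC content the medians were -0.16 and 0.16. Level and base composition therefore moved with this spread, and their part in the results was not tested. Each result is given with and without these libraries where they change it.

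**Figure D1:**
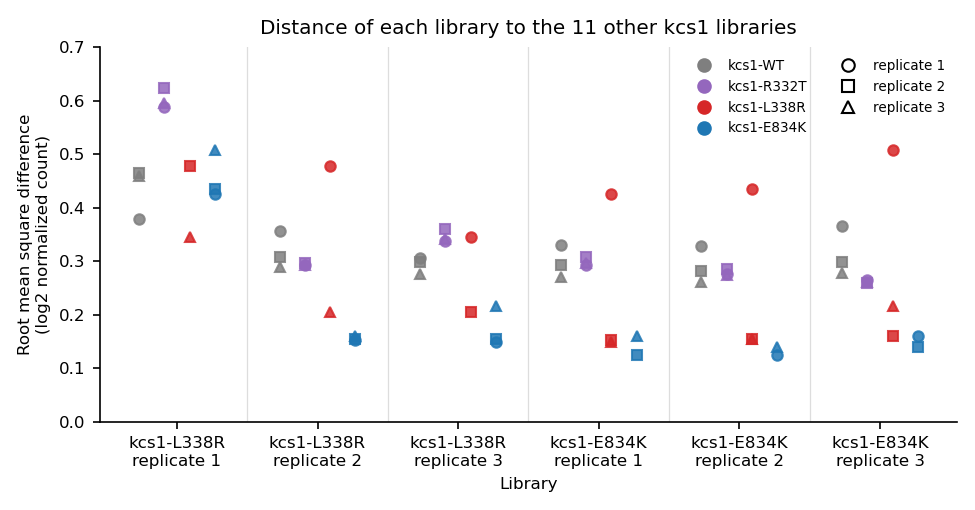
Root mean square difference of log2 normalized counts (vertical axis) between each L338R and E834K library (horizontal axis) and each of the 11 other kcs1 libraries, coloured by genotype and shaped by replicate number. L338R replicate 1 is 0.43 to 0.51 from the E834K libraries, whereas L338R replicate 2 lies 0.15 to 0.16 from them.

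The kcs1 transcript (SPCC970.08) itself was present in all 12 libraries. Its normalized counts were 2185, 1855 and 2171 in L338R replicates 1 to 3 and 2214, 2204 and 2393 in E834K. All 3 L338R values were below the lowest E834K value, but the fitted difference was small, -0.13 on the log2 scale (95% interval -0.27 to 0.0027, adjusted p = 0.346 by edgeR's quasi-likelihood test), and kcs1-WT ranged from 2110.4 to 2297. A count over the whole gene does not read the mutated codon, so the allele in each library was not checked here. In bulk cultures, fewer cells that express a gene and less RNA per cell cannot be told apart. For asp1, which encodes the IP8 kinase and pyrophosphatase, the counts were 1138, 1287 and 1075 in L338R and 1127, 1148 and 1181 in E834K, overlapping groups with a difference of 0.018 (-0.13 to 0.16). Both were below kcs1-WT (1419 to 1476), with log2 differences of -0.31 in L338R (adjusted p = 0.00479 by the quasi-likelihood test) and -0.33 in E834K (adjusted p = 0.00274).

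No coding locus passed the test between L338R and E834K. Of 4979 coding loci tested, 0 (0%) passed an adjusted p of 0.05 in edgeR's quasi-likelihood test, and the smallest adjusted p was 0.273. At an unadjusted p under 0.05 there were 482 loci higher and 319 lower in L338R. The 3 L338R values did not overlap the 3 E834K values at 490 loci where L338R was higher (9.84%) and 291 where it was lower (5.84%). Other tools made few calls: limma-voom made 0, DESeq2's test called 13 higher and 3 lower, and limma-voom with a weight for each library called 16 higher and 17 lower. The call count turned on L338R replicate 2. Without it, the quasi-likelihood test called 138 loci higher (2.77%) and 440 lower (8.82%), whereas it called 0 without L338R replicate 1, E834K replicate 2 or E834K replicate 3, and 1 locus each without L338R replicate 3 (ent1) and without E834K replicate 1 (gdt1). In a setting added after the data were seen, with the wild-type and R332T libraries also left out of the fit, leaving out L338R replicate 2 gave 0 calls (514 higher and 903 lower at an unadjusted p under 0.05). In another added setting both L338R replicates 1 and 2 were left out of the fit of all genotypes, which leaves 1 L338R library that is assumed to vary like the other groups, and the count was 0 (188 higher and 429 lower).

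A test that makes no calls does not show that the alleles act alike, so the intervals of the differences were read directly. At 4023 of the 4979 coding loci (80.8%) the whole 95% interval lay within a 1.5-fold difference in either direction, and at 4821 (96.8%) within a 2-fold difference. Equivalence tests, adjusted across all loci, placed 4139 loci within 1.5-fold and 4867 within 2-fold. The median interval reached 0.171 log2 units, or 1.13-fold, to either side. Among the 4689 loci with a mean of at least 100 normalized counts over the 6 libraries, 3966 (84.6%) were bounded within 1.5-fold and 4656 (99.3%) within 2-fold. For the 290 weaker loci these numbers were 57 (19.7%) and 165 (56.9%), so at low counts a 2-fold difference was often not detectable at this depth. Of the 33 well-expressed loci not bounded within 2-fold, 32 had their lowest L338R value in replicate 1. Without that library 4671 loci were bounded within 1.5-fold (93.6%), against 3712 without L338R replicate 2.

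**Figure D2:**
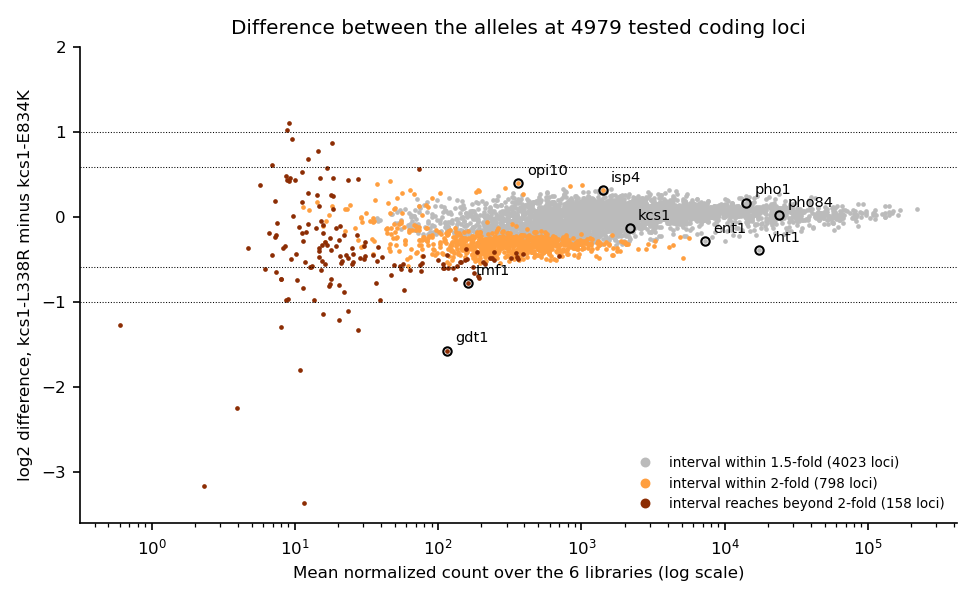
Fitted log2 difference, L338R minus E834K (vertical axis), against the mean normalized count over the 6 libraries (horizontal log axis) for 4979 coding loci, coloured by whether the 95% interval lies within 1.5-fold, within 2-fold or beyond. Dotted lines mark 1.5-fold and 2-fold. The intervals of 4023 loci lie within 1.5-fold, and the loci beyond 2-fold crowd at low counts.

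**Figure D3:**
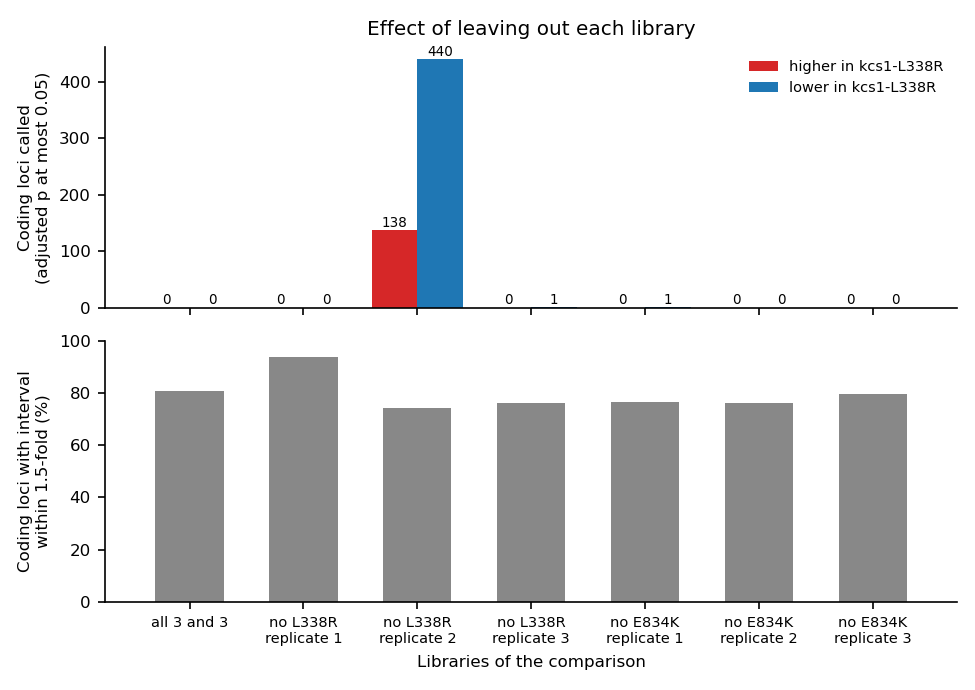
Coding loci called at an adjusted p of at most 0.05 (upper panel, higher and lower in L338R) and the percentage of coding loci whose interval lies within 1.5-fold (lower panel), with all libraries and with each of the 6 left out. Leaving out L338R replicate 2 gives 138 and 440 calls, whereas every other choice gives at most 1.

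As a yardstick, the third allele was set against each of them in the same fit. Between R332T and L338R, 2015 coding loci passed the quasi-likelihood test (40.5%, 945 higher and 1070 lower in R332T), and between R332T and E834K 731 did (14.7%, 212 higher and 519 lower). Read by intervals, 69.7% of loci were bounded within 1.5-fold between R332T and L338R, and 4032 (81.0%) between R332T and E834K, about the same share as the 80.8% between L338R and E834K. By this measure, with all libraries, L338R and E834K were no closer to each other than R332T and E834K, although the calls differed. The distances between libraries read otherwise. The R332T libraries lay 0.26 to 0.31 from those of E834K, and L338R replicates 2 and 3 lay nearer, at 0.15 to 0.22. L338R replicate 1 lay farther, at 0.43 to 0.51. Without L338R replicate 1 the shares were 93.6% between L338R and E834K, 88.4% between R332T and E834K, and 82.6% between R332T and L338R. Without L338R replicate 2 they were, in the same order, 74.4%, 84.2% and 65.3%. These contrasts share libraries with each other. The E834K count rested on single libraries: it was 1318 without L338R replicate 1, 427 without E834K replicate 1 and 459 without E834K replicate 2.

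The largest difference among coding loci with a mean of at least 100 normalized counts was at gdt1 (SPAC186.05c), whose mean was 115. The gene is the homologue of a budding yeast Golgi transporter of calcium and manganese. Normalized counts were 41.6, 62.3 and 71.3 in L338R and 42.2, 260.4 and 214 in E834K. E834K replicate 1 sat at the level of the lowest L338R library, whereas the other E834K libraries were above all of L338R. The fitted difference was -1.57 log2 (95% interval -2.55 to -0.60, adjusted p = 0.30), and without E834K replicate 1 it was -2.03 with an adjusted p of 5.72e-05 by the same quasi-likelihood test. Both alleles had far less gdt1 mRNA than kcs1-WT (2903 to 3278) and R332T (2971 to 3055): it fell 51.9-fold below kcs1-WT in L338R and 17.5-fold in E834K (adjusted p = 1.07e-07 and 6.06e-07 by the quasi-likelihood test). Every 51-base window of the gene is unique in the reference genome, so its reads do not map to a copy elsewhere in that assembly.

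The other loci at the lower extreme had means of 109 to 192 normalized counts over the 6 libraries. They comprised tmf1, nbs1 (a subunit of the MRN complex of DNA double-strand break repair), SPCC569.01c, gem8, SPBC530.02, mug135, shg1 (a subunit of the Set1 histone methyltransferase complex), mde6 and ctr1, with differences of -0.78 to -0.60. At tmf1 the counts were 61.3, 175 and 118 in L338R against 202, 199 and 208 in E834K. Its L338R libraries were spread widely while the E834K libraries were level, all 3 above L338R, and the difference grew from -0.78 (adjusted p = 0.30) to -1.17 without L338R replicate 2 (adjusted p = 0.038, quasi-likelihood test) and shrank to -0.47 without replicate 1. The groups overlapped at mde6 and ctr1 and were apart at the others. At all of these loci but SPBC530.02, replicate 1 of L338R held the lowest value of the 6 libraries. They were chosen for large differences in these same values, and over all coding loci 5.84% had groups apart with L338R lower.

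The loci at the upper extreme differed by less. The largest was opi10 (SPBC21H7.06c), which encodes a protein related to the nuclear importer of Hsp70 chaperones, with 412, 439 and 389 in L338R and 309.5, 317 and 314 in E834K. All 3 L338R values stood above all 3 of E834K, and the difference of 0.40 (0.19 to 0.61) had an adjusted p of 0.30 by the quasi-likelihood test, or 0.0449 without L338R replicate 2. The next loci were SPBC530.07c, crb2 (a DNA damage checkpoint mediator), mri1 (an enzyme of methionine salvage), SPCC794.04c, ism1 (mitochondrial isoleucine-tRNA ligase), dcp2 (the catalytic subunit of mRNA decapping), nfs1 (the cysteine desulfurase of iron-sulfur cluster assembly), isp4 (an oligopeptide transporter) and mug143, with differences of 0.38 down to 0.32. The groups did not overlap at any of these 10 loci, which were chosen for large differences in these same values. Over all coding loci 9.84% had groups apart with L338R higher. L338R replicate 1 was the highest of the 6 libraries at crb2, mri1, SPCC794.04c, ism1, dcp2 and nfs1. Without it the difference fell at these loci and at isp4, for example from 0.32 to 0.17 at nfs1 and from 0.33 to 0.22 at ism1. It was still 0.40 at opi10, and it rose from 0.38 to 0.40 at SPBC530.07c and from 0.32 to 0.37 at mug143. At mri1 the values were 1669, 1452 and 1459 in L338R against 1206, 1227 and 1174 in E834K, and kcs1-WT (1456 to 1711) was at the L338R level. Counts at crb2 were 1078, 881 and 839 in L338R against 757, 710.2 and 699 in E834K, both below kcs1-WT (1182 to 1442). Those at isp4 were 1589, 1475 and 1615 in L338R against 1254, 1265 and 1229 in E834K, and they lay between R332T (707 to 831) and kcs1-WT (2994 to 4683).

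Phosphate acquisition genes differed little between the alleles. All 7 tested members lay within a 1.5-fold difference over their whole intervals, with a median difference of 0.0083 against -0.0021 over all tested coding loci, 0 of 7 passed the test between alleles, and no member's groups were apart. For pho1 (SPBP4G3.02), which encodes an acid phosphatase of the cell surface, the counts were 16251, 13398 and 15399 in L338R and 14071, 12809 and 13162 in E834K. The lowest L338R library, replicate 2, fell between E834K replicates, and the difference was 0.17 (0.019 to 0.32, adjusted p = 0.322). It was 0.25 without L338R replicate 2 (adjusted p = 0.0417 by the quasi-likelihood test) and 0.11 without replicate 1. For pho84 (SPBC8E4.01c), a phosphate transporter, the counts were 25489, 22057 and 24698 in L338R and 23131, 24024 and 23891 in E834K, overlapping groups with a difference of 0.024 (-0.10 to 0.15).

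Against kcs1-WT, pho1 and pho84 fell in both alleles, and each contrast is read beside the other because both use the same wild-type libraries. The pho1 counts in kcs1-WT were 50749 to 52301, 3.42-fold above L338R and 3.85-fold above E834K (log2 -1.77 ± 0.07 and -1.94 ± 0.07, fitted SE, n = 3 cultures a group, adjusted p = 1.46e-09 and 1.01e-09 by edgeR's quasi-likelihood test). Those of pho84 were 62551 to 66674, 2.7-fold and 2.75-fold above the alleles. R332T lay far lower still, at 751 to 909 for pho1 and 2048 to 2356 for pho84.

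The smaller members followed. For tgp1, a glycerophosphodiester transporter, the counts were 371, 331 and 392 in L338R and 358, 370.2 and 395 in E834K, a difference of -0.037 (-0.32 to 0.25), with kcs1-WT at 999 to 1276. At SPBPB2B2.06c, an extracellular 5′-nucleotidase gene of a subtelomeric cosmid, they were 402, 374 and 334 in L338R and 247, 346 and 397 in E834K, with an interval of -0.25 to 0.58. At ecl3, a short gene next to prt2, they were 57.1, 72 and 67.2 in L338R and 77.1, 74.4 and 66.4 in E834K. At none of the 3 genes were the groups apart. In L338R they lay 3.08-, 3.98- and 4.5-fold below kcs1-WT, and in E834K 3.00-, 4.46- and 4.04-fold. The phosphate transporter genes pho841 and pho842 differed between alleles by -0.049 (-0.15 to 0.053) and 0.0083 (-0.15 to 0.16), and pho841 was 1.49-fold and 1.44-fold below kcs1-WT in L338R and E834K. Across the wider phosphate and polyphosphate list of 10 tested genes the median difference was 0.036 and 0 passed. Only pho8, which encodes a vacuolar alkaline phosphatase, had groups that did not overlap. Its counts were 4202, 3882 and 3972 in L338R and 3723, 3742 and 3797 in E834K. A share of 1 in 10 was near the 9.84% of all coding loci with groups apart and L338R higher.

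**Figure D4:**
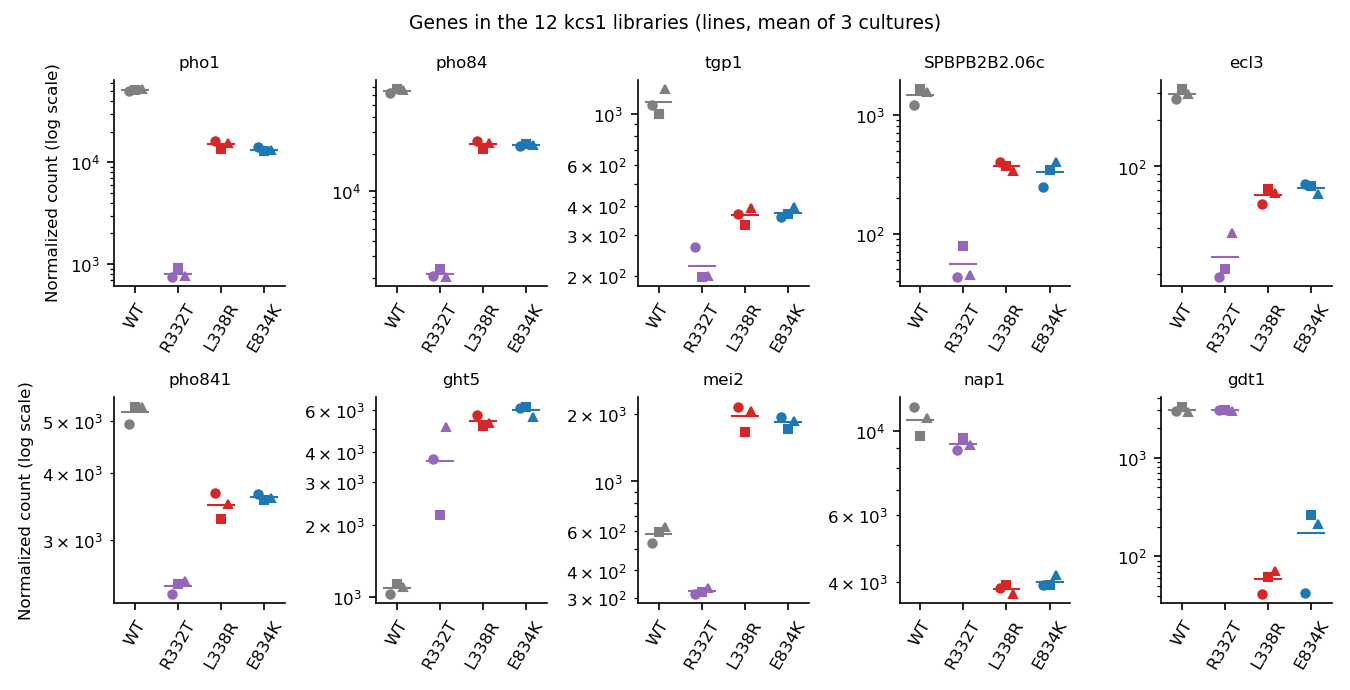
Normalized counts (vertical log axes, each panel its own range) of 10 genes in the 12 kcs1 libraries by genotype (horizontal axis), shaped by replicate number, with lines at the mean of 3 cultures. L338R and E834K overlap at every gene shown, and E834K replicate 1 sits with the L338R libraries at gdt1.

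Noncoding transcripts of the PHO loci were counted as well, with 4 of the listed lncRNAs testable. They lay on the other side of zero, with a median of -0.25 (-0.0021 over all tested coding loci) and a lower fitted value in L338R for all 4, although 0 passed the test and no transcript had groups apart. At prt2, transcribed upstream of pho84, the counts were 453, 420.0 and 489.6 in L338R and 459, 467 and 494 in E834K. At nc-tgp1, upstream of tgp1, they were 294, 308 and 361 in L338R and 362, 321 and 399.6 in E834K, with kcs1-WT at 210.3 to 229.9. The transcript nc-pho1 was near the limit of counting, at 29.1, 25.8 and 20.4 in L338R and 50.4, 32 and 24.1 in E834K. The strand setting of the counting is not given in the sources used here, so reads of an lncRNA and of an overlapping mRNA may not be separate. At ncRNA.1343 they were 172, 329 and 294 in L338R and 336, 316 and 351 in E834K, where L338R replicate 1 was far below the other libraries. Without that library the median of the 4 was -0.10, and without L338R replicate 2 it was -0.33. With all libraries the interval lay within 1.5-fold for 2 of the 4.

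Genes that make, use or remove inositol phosphates barely differed. All 13 tested members of this list were bounded within 1.5-fold, their median difference was 0.034, and 0 passed the test, while groups were apart in 3 members with L338R higher and 1 (kcs1) lower, against 9.84% and 5.84% over all coding loci. The highest was pik1, a phosphatidylinositol 4-kinase, with 4789, 4391 and 4047 in L338R and 4018, 3649 and 3911 in E834K. Its difference was 0.19 (0.065 to 0.32). The lowest was arg82, which encodes the inositol polyphosphate multikinase upstream of IP6, with 609.8, 776 and 689 in L338R and 735, 744 and 916 in E834K and a difference of -0.21 (-0.44 to 0.031), where L338R replicate 1 was the lowest of the 6 libraries and replicates 2 and 3 overlapped E834K. The remaining members differed by -0.17 (plc1, phospholipase C) to 0.10 (stt4, another phosphatidylinositol 4-kinase), apart from kcs1 itself as given above.

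Each allele was then set beside kcs1-WT with the study's thresholds (adjusted p of at most 0.05, at least 2-fold, a mean of at least 100 normalized counts in the higher group). L338R gave 16 higher (0.321%) and 23 lower (0.462%) coding loci, and E834K 22 higher (0.442%) and 23 lower (0.462%). R332T gave 21 higher (0.422%) and 17 lower (0.341%). At an adjusted p of 0.05 alone, L338R had 549 higher and 653 lower and E834K 520 higher and 913 lower. The E834K count of higher loci was 829 without L338R replicate 1 and 363 without E834K replicate 2. The L338R counts by the study's thresholds moved to 20 and 21 without L338R replicate 1 and to 13 and 24 without replicate 3.

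Among the genes higher than kcs1-WT, ght5 (SPCC1235.14), a high-affinity glucose transporter, rose most. Its counts were 5718, 5162 and 5302 in L338R and 6131, 6191 and 5589 in E834K against 1029 to 1127 in kcs1-WT, a 4.97-fold and a 5.5-fold increase. The alleles overlapped, with a difference of -0.15 (-0.55 to 0.26). R332T was in between and uneven, at 3743, 2199.7 and 5092, and 70.7% of the gene's 51-base windows are unique in the reference, so some reads may be shared with other hexose transporter genes.

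The meiotic regulator mei2 had 2162, 1671 and 2063 in L338R and 1949.7, 1724 and 1858 in E834K against 531 to 626 in kcs1-WT, 3.37-fold and 3.16-fold higher, whereas R332T (314 to 335) was below kcs1-WT. The interval between alleles was -0.10 to 0.29. The small heat shock protein gene hsp9 had 17946, 16286 and 17034 in L338R and 17067, 14347 and 15687 in E834K (6006 to 7089 in kcs1-WT), 2.68-fold and 2.46-fold higher, with R332T (6233 to 7418) near kcs1-WT. SPAC15E1.02c had 803, 706 and 879 in L338R and 763, 779 and 816 in E834K (191 to 296 in kcs1-WT), an increase of 3.26-fold and 3.22-fold. In each of these 3 genes the alleles overlapped.

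In the other direction, nap1, a histone chaperone, fell to 3851, 3930.3 and 3723 in L338R and 3930.2, 3939 and 4168 in E834K from 9684 to 11582 in kcs1-WT, 2.79-fold and 2.66-fold, whereas R332T held 8929.6 to 9567. The interval of the difference between the alleles was -0.19 to 0.059. SPAC750.01, on a subtelomeric cosmid, had 7.27, 1.07 and 6.11 in L338R and 8.23, 6.06 and 8.45 in E834K against 145 to 210.1 in kcs1-WT, and 67.5% of its windows are unique. The gene ftm4 was at 0 to 1 normalized counts in L338R and 0 to 3 in E834K against 101 to 109.9 in kcs1-WT, but only 8% of its windows are unique, so its reads may be split with copies and no fold is given. Of the 49 loci past the thresholds in at least 1 of the alleles, groups were apart between them in 3 with L338R higher (isp4, the4 and SPBPB7E8.01) and 3 with L338R lower (SPAC1039.02, SPAC23D3.05c and SPCC663.08c), against 9.84% and 5.84% over all coding loci. Examples are the4, at 2151, 2090.3 and 2075 in L338R against 1858, 1792 and 1623 in E834K, and SPAC1039.02, at 8603, 7246 and 8174 in L338R against 8666, 9703 and 8817 in E834K.

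Genes that R332T changed by the study's thresholds, a list chosen after these values were seen, gave a further reading of the distance between the alleles. Over the 17 genes lower in R332T than in kcs1-WT, the median log2 ratio to the wild-type mean was -1.57, -1.46 and -1.63 in the R332T libraries, -1.18, -1.29 and -1.11 in L338R and -1.27, -1.27 and -1.18 in E834K. The L338R and E834K libraries overlapped, while the position of R332T is fixed by the choice of the genes. Over the 21 genes higher in R332T, the medians were 1.37, 1.31 and 1.32 in R332T, 0.62, 0.94 and 0.96 in L338R and 1.001, 0.90 and 1.05 in E834K. L338R replicate 1 lay below the other libraries of both alleles, and 16 of the 21 genes had a lower fitted value in L338R than in E834K, with a median difference of -0.12 (-0.083 without replicate 1). In both lists 0 genes passed the test between alleles.

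Small shifts by function were described over 29 gene lists, by counts and medians. The median difference was between -0.1 and 0.1 in 24 lists. Of the 5 beyond, heat shock chaperones (0.11) and the proteasome regulatory particle (0.10) were on the L338R side, and ribosome biogenesis (-0.16), the PHO lncRNAs (-0.25) and meiosis and sporulation (-0.27) on the E834K side. In every list 0 members passed the test between alleles, as did 0 of 4979 over all coding loci.

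Stress genes were on the L338R side. In the heat shock chaperone list 21 of 26 tested members had a higher fitted value in L338R, in 2 the groups were apart with L338R higher, a smaller share than the 9.84% of all coding loci, and the median was 0.13 without L338R replicate 2 and 0.079 without replicate 1. At ssa1, an Hsp70 chaperone, counts were 1517, 1781 and 2012 in L338R and 1575, 1394 and 1462 in E834K, and at hsp104, a disaggregase, 1180.1, 1180.5 and 1262 in L338R and 1219.6, 931 and 908 in E834K. The highest E834K library lay among the L338R libraries in both. In the stress response list 27 of 30 members had a higher fitted value in L338R, groups were apart in 9 higher and 1 lower, with a median of 0.095 that was 0.10 and 0.080 without replicate 2 and replicate 1. For rtc3 the counts were 1257, 1605 and 1467 in L338R and 1286, 1162 and 1053 in E834K, where only the lowest L338R library fell below an E834K library. By library, the medians of both lists overlapped between the alleles, with E834K replicate 1 among the L338R libraries.

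The proteasome regulatory particle, the cap that feeds substrates to the proteasome core, had 8 of its 19 members with groups apart, all higher in L338R, against 9.84% of all coding loci. Its median was 0.10, and 0.081 and 0.099 without L338R replicates 2 and 1. By library, the medians of this list overlapped between the alleles. Its member rpn501 had 219, 759 and 316 in L338R and 357, 357 and 354 in E834K, with L338R replicate 2 alone high. Only 7% of the windows of rpn501 are unique, since rpn502 is a near copy. Ergosterol synthesis had a median of 0.061 with 23 of 25 members higher in L338R and 5 groups apart, and the iron regulators and iron-using proteins 0.072 with 14 of 16 members higher and 3 apart. Both lists had 0 members with groups apart and L338R lower, which for lists of this size is near the 5.84% of all coding loci. All members of both were bounded within 1.5-fold.

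Genes listed under ribosome biogenesis were on the E834K side. They were picked by the form of the gene name, so some may have other functions. Of 111 tested members 76 had a lower fitted value in L338R, and the median was -0.16. Groups were apart in 5 higher and 9 lower (9.84% and 5.84% over all coding loci). The interval lay within 1.5-fold for 74 of the 111 (66.7%), against 80.8% of all tested coding loci. The library medians about the mean of the 6 libraries were -0.25, 0.09 and -0.02 in L338R and 0.02, 0.05 and 0.18 in E834K. Replicate 1 was the lowest, and replicate 2 lay among the E834K libraries. Without replicate 1 the median was -0.044, and without replicate 2 it was -0.23 with 29 members called lower, against 8.82% of all coding loci in that setting. At nop16, an assembly factor of the large ribosomal subunit, the counts were 276, 825 and 652 in L338R and 707, 765 and 941 in E834K. Cytosolic ribosomal proteins had a median of -0.0061 over 139 genes, with groups apart in 3 higher and 7 lower, shares below those of all coding loci, and 138 of the 139 were bounded within 1.5-fold. The exception in size was rpl4102, with 3123, 4949 and 4684 in L338R and 6110.3, 5875 and 5822 in E834K, groups apart and a difference of -0.48 (-0.74 to -0.22, adjusted p = 0.30 by the quasi-likelihood test, 0.038 without L338R replicate 2 and 0.0183 by DESeq2). Mitochondrial ribosomal proteins had a median of -0.038 over 65 genes.

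Meiosis and sporulation genes, which are low in vegetative cells, had the lowest median, -0.27 over 22 tested members, with 20 lower in L338R and groups apart in 4, all lower, against 5.84% of all coding loci. The library medians were -0.54, 0.10 and -0.03 in L338R and 0.11, 0.19 and 0.21 in E834K, so all 3 L338R libraries lay below the E834K libraries, replicate 2 by the least. Without replicate 1 the list median was -0.066, and without replicate 2 -0.37. The interval lay within 1.5-fold for 4 of the 22 members (18.2%), against 80.8% of all tested coding loci. Among the 29 lists, library medians were apart between alleles in 1 other, the PHO lncRNAs, and in 0 with L338R higher. Histones and their chaperones had a median of -0.072 with 12 of 14 members lower and all 14 bounded within 1.5-fold.

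**Figure D5:**
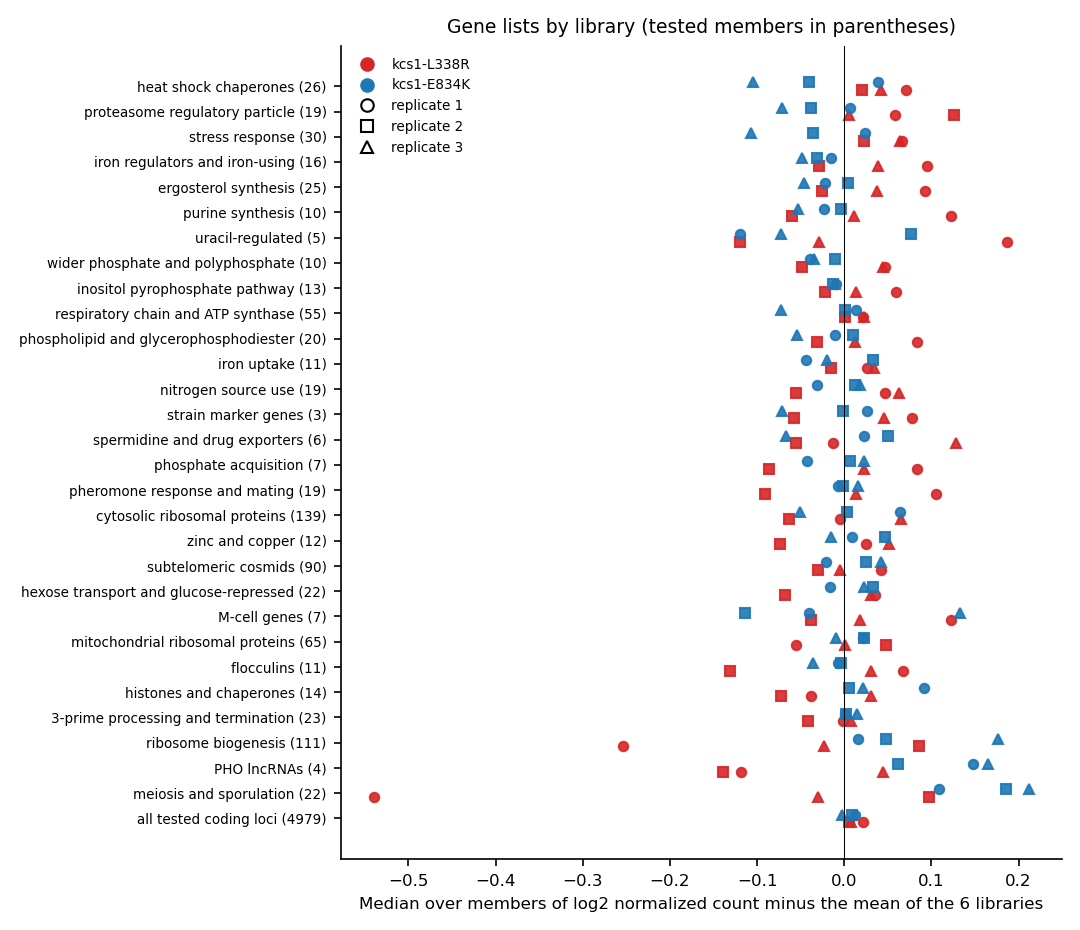
Median over the tested members of each gene list (vertical axis, member counts in parentheses) of the log2 normalized count minus the mean of the 6 libraries (horizontal axis) for each L338R and E834K library. L338R replicate 1 lies far to the left for meiosis and sporulation (-0.54) and ribosome biogenesis (-0.25), and most other lists cluster near zero with the alleles interleaved.

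The 578 loci called without L338R replicate 2 split into a low and a high arm of unlike make-up. The 440 lower loci had a median difference of -0.57, a median of 599 normalized counts and a median GC content of 36.6%, against 1186 counts and 37.2% over all tested loci. In 431 of them L338R replicate 1 was the lowest of the 6 libraries. The 138 higher loci had a median difference of 0.20, a median of 6219 counts and a GC content of 38.7%, and L338R replicate 1 was the highest in 125. Both arms were called with replicates 1 and 3 as the only L338R libraries, so an extreme replicate 1 was partly built into the choice. In the left-out library, 53.6% of the lower loci and 25.4% of the higher loci were within the range of the 3 E834K libraries, against 45.5% of all tested coding loci. By size, 198 of the lower loci and 0 of the higher differed by more than 1.5-fold. Of the 141 genes named by rule, 29 were called in this setting, pho1 among them, against 2.77% higher and 8.82% lower over all coding loci, and many of these genes were named for the size of their difference or deviation.

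Where replicate 2 departed most upward from the mean of the other L338R libraries, by 1.09 to 1.53 on the log2 scale, replicate 1 was low. These loci were rpn501, ctr1, SPAC144.01, nuf2 (a kinetochore subunit), brl1, pwi1, rng9, new13, plp2 and trm10 (a tRNA methyltransferase). At nuf2 the L338R counts were 61.3, 214 and 145 and the E834K counts 190.2, 188 and 251. Replicate 2 was inside the E834K range and replicate 1 far below it. At brl1 they were 226, 722 and 455 in L338R against 524, 571 and 703 in E834K. The downward deviations of replicate 2 were smaller, -0.54 to -0.43, apart from -1.89 at SPAC750.01, where it had 1.07 normalized counts. They included SPBC530.02, SPAC3A12.08, pfl5 (a flocculin-like cell surface protein), mug8, trs31, ark1 (the aurora kinase), fio1 (an iron transport multicopper oxidase), mfs2 and wtf19. At fio1 the counts were 256, 194 and 283 in L338R against 207, 246 and 310.3 in E834K, with replicate 2 the lowest of all 6.

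A few small differences were called in more than 1 setting. A set of 8 coding loci was called by DESeq2's test, by limma-voom with library weights and, without L338R replicate 2, by the quasi-likelihood test. The set was chosen after these values were seen. All of these settings reuse the same libraries, and with all libraries the quasi-likelihood test called 0 loci. The library weights were 0.18, 0.35 and 2.62 for L338R replicates 1 to 3, so the weighted fit leaned on replicate 3. Lower in L338R were rpl4102, given above, vht1 and ent1. The gene ent1 (SPCC162.07), which encodes an epsin of endocytosis, was at 6308, 6220.4 and 7073 in L338R and 7992, 7728 and 8112 in E834K. Its groups were apart, its difference was -0.28 (-0.39 to -0.18), and its adjusted p of 0.273 in the quasi-likelihood test was the smallest of all loci. Without L338R replicate 3 its adjusted p was 0.0178.

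The 5 higher in L338R were mri1, given above, SPAC26F1.07, mug33, anc1 (the mitochondrial ADP/ATP carrier) and ndi1 (a mitochondrial NADH dehydrogenase). At SPAC26F1.07 the counts were 14637, 13721 and 13641 in L338R and 12238, 12090.5 and 11722 in E834K, a difference of 0.22 (0.12 to 0.32). At ndi1 they were 5437, 4898 and 4803 in L338R and 4364, 4129.7 and 3769 in E834K, a difference of 0.30 (0.16 to 0.44), and at anc1 19778, 17496 and 17643 in L338R and 15982, 15361 and 14830.1 in E834K, a difference of 0.25 (0.12 to 0.38). All of these intervals lay within 1.5-fold. The gene vht1 (SPAC1B3.16c), which encodes the biotin transporter, was at 15416, 13429 and 16188 in L338R against 18389.5, 18961 and 21643 in E834K, with kcs1-WT (14696 to 16229.6) at the L338R level and a difference between the alleles of -0.39 (-0.57 to -0.21). The adjusted p was 0.30 by the quasi-likelihood test and 0.0115 by DESeq2. Without L338R replicate 2 the difference was -0.31 (adjusted p = 0.0417 by the quasi-likelihood test) and without replicate 1 -0.41 (adjusted p = 0.153).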

How the data were processed

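Per the labels and the study's methods, the authors aligned stranded, poly(A)+ selected reads with HISAT2 2.1.0 to genome build ASM294v2 and counted them per annotated locus with HTSeq 0.10.0; DESeq2 and SAMtools are also named. The deposited table used here holds raw counts, whole numbers that are not normalized, for 6988 loci (5156 coding). The authors' fold changes and p-values in other columns were not used. The strand setting of the counting is not given in the sources used here, and the labels and the methods name different library kits.

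Of the loci, 6093 (4979 coding) passed edgeR's filterByExpr. TMM factors, dispersions and quasi-likelihood fits were estimated over all 12 kcs1 libraries (R 4.3.3, edgeR 4.0.16; biological coefficient of variation 0.0849), with Benjamini-Hochberg adjustment over all tested loci. Intervals of 95% used the Wald error with the moderated dispersion. Normalized counts are counts divided by effective library size and rescaled to their geometric mean; distances used log2 of the normalized count plus 1. Alternatives were DESeq2 1.42.0, its size factors, limma-voom 3.58.1 with and without library weights, a replicate block, no filter, a robust fit, the 6 libraries alone and each library left out. Tables and figures were made with Python 3.11.15, numpy 2.4.6, pandas 2.3.3 and matplotlib 3.10.9.

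Deviations of same-numbered libraries from the others of their group correlated at 0.40 to 0.72 between L338R and kcs1-WT, and at -0.27 to 0.36 between L338R and E834K. The numbers may thus pair the L338R and kcs1-WT samples, from the data and not from the labels. The deviations depend on each other within a group and moved with expression level, so these values do not establish a pairing.

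Genes named (141) were the 10 largest differences in each direction with a mean of at least 100 normalized counts, all phosphate acquisition and inositol pyrophosphate genes, the PHO lncRNAs, loci past the study's thresholds against kcs1-WT, the 10 largest deviations of L338R replicate 2 in each direction and the extremes of each list. The groups, members and 29 lists (903 genes asked, 814 tested) were chosen with earlier results of these data known. GC content and unique 51-base windows were computed from the RefSeq ASM294v3 assembly, to which 6836 loci were matched by ID and 152 were not. No sequence or coordinate is given because the builds differ. Depth was 19515604 to 27776638 counts per library.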

Additional observations from a re-analysis of the deposited data

How the results depend on the processing

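The count of coding loci called between L338R and E834K (0 with all libraries) was 0 to 578 when each library was left out in turn, 44 with the replicate number as a block (41 higher and 3 lower in L338R), 16 by DESeq2's test and 33 by limma-voom with library weights, whereas DESeq2's size factors, no filter, a robust fit, limma-voom and the 6 libraries alone also gave 0. Named genes called were 0 with all libraries, 0 to 29 when each library was left out, 5 with the block, 4 by DESeq2 and 6 with library weights. Between L338R and E834K, deviations of same-numbered libraries correlated above 0.1 in 2 of 3 pairs. Of the 6 libraries, 3 correlated best with their own number. These values do not settle whether the replicate numbers pair the L338R and E834K samples. Between L338R and kcs1-WT all 3 pairs correlated above 0.1. There the block left 16 higher and 23 lower by the study's thresholds and lost no call of a named gene. With it, ism1, dcp2, pho2, erg9 and ade9 also passed. Lists with a median beyond 0.1 numbered 5, 1 to 7 when each library was left out and 2 with library weights. R332T against E834K gave 427 to 1318 calls when each library was left out and 1547 without L338R replicates 1 and 2, a setting chosen after the data were seen. Against kcs1-WT, nop16 in L338R ranged from -0.35 without L338R replicate 2 to 0.32 without replicate 1. Between the alleles, the differences of 29 of the 141 named genes, pho84 and tgp1 among them, changed sign when 1 library was left out. These differences kept their side of the threshold in 2207 recomputed cases and passed it in 45, and the cause of these changes was not tested. Loci under 100 normalized counts were bounded poorly at this depth, and p-values measure only the spread between cultures of 1 strain per allele.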
